A study of Mus musculus with 6 samples.

Results

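Skeletal muscle contractile and calcium handling genes were followed through whole brain RNA of mouse embryos at E18.5. The set holds 41 genes out of 55359 annotated genes, and all 41 were found by symbol in the tables. The members were chosen by their TPM, a length-corrected share of a library's transcripts, in these same libraries, together with their known roles in muscle, so the levels below are a description of them. The 6 libraries were 3 from S156A embryos, which carry the S156A form (a serine replaced by alanine) of PME-1, the methylesterase of the phosphatase PP2A, and 3 from WT embryos. The labels give no treatment for either group. Each library was a pool of 3 brains, so variation among individual embryos cannot be seen. They are called S156A 1 to 3 and WT 1 to 3 here, by the replicate numbers in the sample titles, and values are listed in that replicate order.

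Skeletal muscle shortens when myosin heavy chains of the thick filament pull on actin of the thin filament. A nerve impulse opens acetylcholine receptors at the neuromuscular junction, the ryanodine receptor then releases calcium from the sarcoplasmic reticulum, and calcium binding to troponin C frees the actin filament for myosin. Developing muscle is known for embryonic and neonatal isoforms of these proteins, which adult fast and slow isoforms largely replace after birth. Brain tissue is not a known site of sarcomere assembly, although some of the genes, among them Ryr1, Pvalb and Pax7, are also known to be active in neurons or brain progenitors.

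The muscle transcripts were concentrated in 1 library of each genotype. Summed over the 41 members, S156A 1, 2 and 3 held 11933, 122 and 114 TPM, and WT 1, 2 and 3 held 51.0, 1355 and 11428 TPM. These sums were 1.25%, 0.0128% and 0.0120% of the annotated TPM in the S156A libraries, and 0.00533%, 0.146% and 1.19% in the WT libraries. S156A 1 and WT 3 therefore stood apart from the rest, WT 2 lay between, and the groups overlapped over almost the whole range. The sum in S156A 1 was 97.5 times that in S156A 2 and 105 times that in S156A 3, and the sum in WT 3 was 224 times that in WT 1. In bulk RNA, fewer cells of a type and less RNA per cell cannot be told apart, so these sums are shares of RNA and not numbers of muscle cells.

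Depth was gauged by dividing coverage by FPKM, as no read counts were used. It came to 3.87, 3.24 and 4.14 aligned gigabases in the S156A libraries and 3.15, 3.31 and 3.37 in the WT libraries. The WT estimates ran in the same order as the WT member sums and the S156A estimates did not, and the part of depth in the sums was not tested. Between 18191 and 19270 genes reached 1 TPM in each library. Ppme1, which encodes PME-1, had 72.4, 89.0 and 82.7 TPM in the S156A libraries and 92.4, 95.03 and 74.0 TPM in the WT libraries. A single amino acid change need not alter this level, so it does not check the genotype labels. The 10 brain marker genes, which check the labelled tissue, summed to 2950, 4209 and 4013 TPM in the S156A libraries and 5027, 4596 and 3727 TPM in the WT libraries. Brain transcripts were abundant in every library, and their lowest sums in each genotype were in S156A 1 and WT 3. Gene by gene this held for Tubb3, Stmn2, Map2, Snap25, Gad1 and Pax6. Neurod2, Sox2 and Dcx were lowest in S156A 1 but, among the WT libraries, in WT 2. Nes went the other way and was highest in S156A 1 and WT 3 within each genotype.

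The proximal promoters of 4 members are shown because they mark the ends of the pattern described below: Acta1 had the highest level of all members, Myog is a regulator of muscle genes, Chrng encodes a fetal receptor subunit that followed the muscle-rich libraries, and Chrne encodes its adult counterpart, which did not. Each line gives the 250 bases before the RefSeq transcription start, 5′ to 3′ on the gene's strand, in build GRCm38.p6. The windows are chr8:123894776-123895025 on the minus strand for Acta1, chr1:134289754-134290003 on the plus strand for Myog, chr1:87205561-87205810 on the plus strand for Chrng and chr11:70619195-70619444 on the minus strand for Chrne. Capitals mark matches to the E-box CANNTG, the TATA motif TATAA, the M-CAT motif CATTCC, the CArG box and the MEF2 site, all searched on both strands.
Acta1: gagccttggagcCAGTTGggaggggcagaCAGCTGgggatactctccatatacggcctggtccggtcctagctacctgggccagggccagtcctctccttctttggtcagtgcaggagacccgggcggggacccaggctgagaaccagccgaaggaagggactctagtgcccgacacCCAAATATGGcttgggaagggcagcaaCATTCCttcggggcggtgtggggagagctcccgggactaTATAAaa
Myog: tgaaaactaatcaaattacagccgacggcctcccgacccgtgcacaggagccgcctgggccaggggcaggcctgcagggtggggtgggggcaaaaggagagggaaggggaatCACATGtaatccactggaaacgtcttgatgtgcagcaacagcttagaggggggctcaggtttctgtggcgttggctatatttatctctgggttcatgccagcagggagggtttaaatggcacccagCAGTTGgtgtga
Chrng: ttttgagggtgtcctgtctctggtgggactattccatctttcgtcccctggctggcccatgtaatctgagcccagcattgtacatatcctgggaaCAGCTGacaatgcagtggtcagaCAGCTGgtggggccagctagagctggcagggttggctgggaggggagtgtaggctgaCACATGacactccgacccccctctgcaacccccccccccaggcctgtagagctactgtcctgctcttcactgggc
Chrne: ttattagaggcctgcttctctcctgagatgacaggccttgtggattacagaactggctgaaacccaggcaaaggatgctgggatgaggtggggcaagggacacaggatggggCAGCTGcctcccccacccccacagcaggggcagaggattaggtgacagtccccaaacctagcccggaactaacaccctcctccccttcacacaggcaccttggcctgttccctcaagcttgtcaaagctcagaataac

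The Acta1 window held 2 E-boxes, 1 CArG box, 1 M-CAT motif and 1 TATA motif, none of which overlapped another. The Myog window held 2 E-boxes, the Chrng window 3 and the Chrne window 1. RefSeq windows were found for 35 of the 41 members, which had 43 promoters. An E-box was present in 36 of these 43 promoters (83.7%), against 66.2% of 32851 promoters of the same length. The CArG box was present in 4 (9.30%, against 1.47% of all promoters) and the MEF2 site in 6 (14.0%, against 2.92%). The M-CAT motif was present in 8 (18.6%, against 12.6%) and the TATA motif in 14 (32.6%, against 22.8%). A match is a stretch of letters and not a shown binding site, and a missing match says only that these letters are not in the window. Some members have several promoters, so the 43 are not independent.

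**Figure D1:**
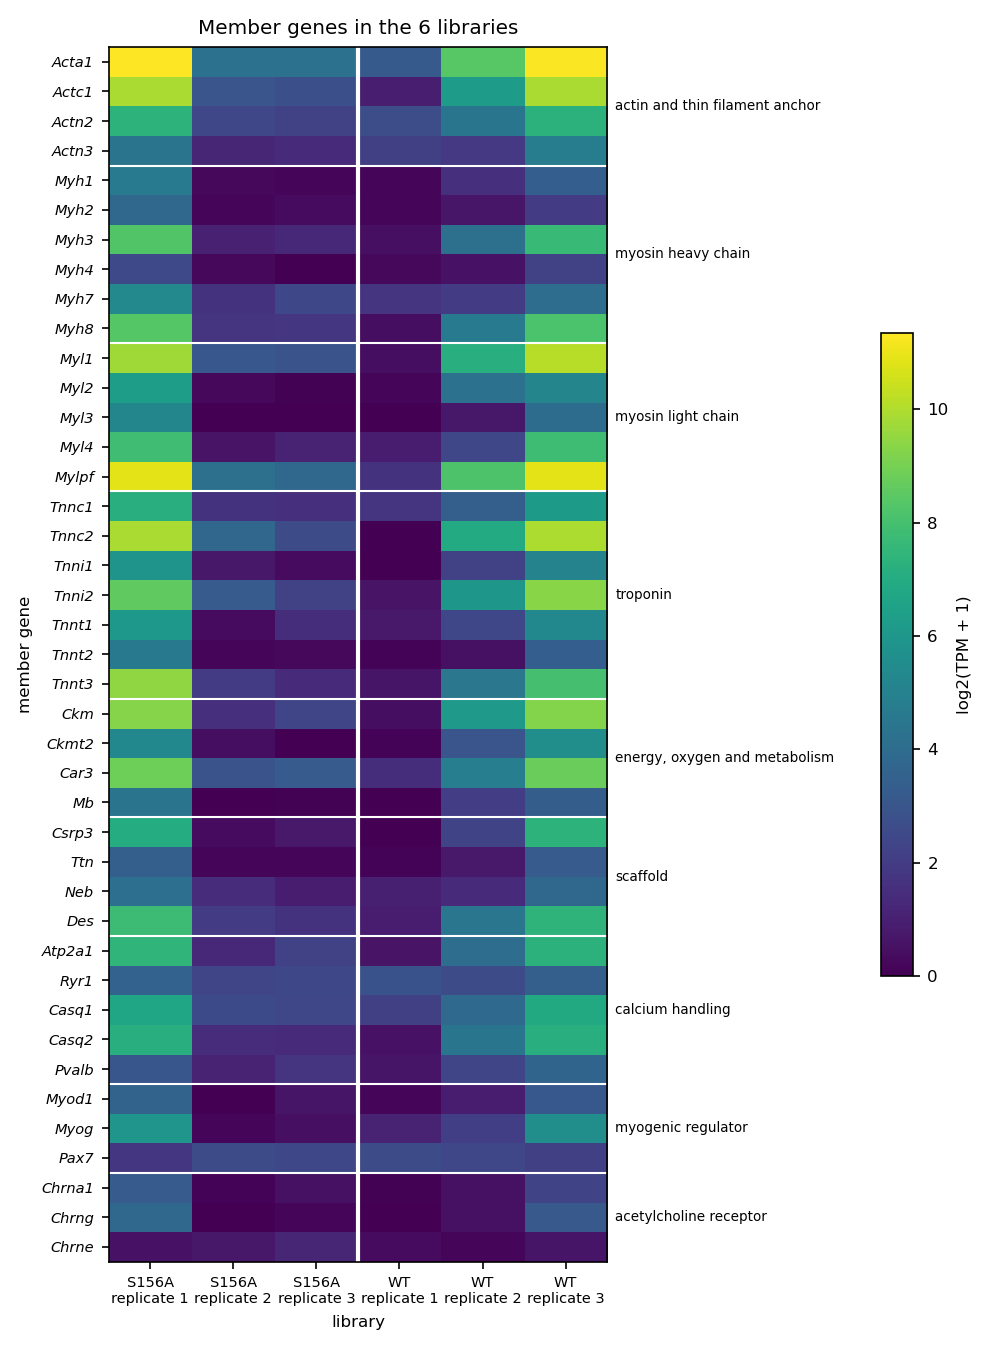
Level of the 41 members (rows, by role) in the 3 S156A and 3 WT libraries (columns), as log2(TPM + 1). S156A 1 and WT 3 are high for nearly every gene, WT 2 is intermediate, and Pax7 and Chrne do not follow the other rows.

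The same libraries led for nearly every member. In 39 of 41 members the 2 highest values were those of S156A 1 and WT 3, the exceptions being Pax7 and Chrne. WT 2 came next in 34 of those 39. S156A 1 was the highest library for 30 members and WT 3 for 9, and 25 members were lowest in WT 1. Among genes passing a mean of 1 TPM, 39 of 40 members (97.5%) had these top 2 libraries, against 2613 of all 18893 genes (13.8%). This count restates the values by which the members were chosen, so no test was made of it. The median member had 64.7, 1.30 and 1.63 TPM in the S156A libraries and 0.454, 4.38 and 47.7 TPM in the WT libraries.

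Actin led the thin filament genes and the whole set. Acta1, the skeletal alpha-actin of adult sarcomeres, had 2611, 17.7 and 18.7 TPM in the S156A libraries, against 8.22, 333 and 2472 TPM in the WT libraries. Actc1, the cardiac alpha-actin that fetal skeletal muscle also uses, had 973, 7.02 and 5.78 TPM in the S156A libraries, against 0.909, 76.3 and 966 TPM in the WT libraries. Both genes were within 1.06-fold of equality between S156A 1 and WT 3, and Actc1 made up 27.2% of the TPM of the pair in S156A 1 and 28.1% in WT 3. Actn2, a Z-disc alpha-actinin that anchors thin filaments, had 160, 4.33 and 3.57 TPM in the S156A libraries, against 5.40, 20.0 and 155.9 TPM in the WT libraries. Actn3, the fast-fibre alpha-actinin, had 19.8, 1.30 and 1.63 TPM in the S156A libraries, against 3.45, 2.64 and 25.9 TPM in the WT libraries. Unlike the actins, both alpha-actinins were higher in WT 1 than in S156A 2 and S156A 3, so their low values did not follow the same order. Acta1 lies on chromosome 8 at 124618508 to 124621490 in the coordinates of the files, whose build was inferred to be GRCm39, on the minus strand.

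Developmental isoforms made up most of the sarcomeric myosin heavy chain TPM wherever muscle RNA was plentiful. Myh3, the embryonic heavy chain, had 310, 1.07 and 1.44 TPM in the S156A libraries, against 0.371, 17.3 and 202 TPM in the WT libraries. Myh8, the neonatal (perinatal) heavy chain, had 329, 2.37 and 2.48 TPM in the S156A libraries, against 0.331, 23.6 and 278 TPM in the WT libraries. Together they were 88.5% of the summed TPM of the 6 heavy chains in S156A 1, against 93.7% in WT 3 and 87.0% in WT 2. In S156A 2 and S156A 3 the share was 55.7% and 44.6%, and in WT 1 it was 20.6%, but the summed heavy chain TPM there was only 6.19, 8.79 and 3.41. The embryonic and neonatal forms were split almost evenly in S156A 1, with 42.9% Myh3 and 45.6% Myh8, whereas Myh8 was ahead in WT 3, at 54.3% against 39.4%.

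The adult fast heavy chains were present at low level in both muscle-rich libraries. Myh1, the IIx form, had 25.8, 0.190 and 0.160 TPM in the S156A libraries, against 0.109, 1.947 and 9.64 TPM in the WT libraries. Myh2, the IIa form, had 13.4, 0.154 and 0.254 TPM in the S156A libraries, against 0.153, 0.608 and 2.999 TPM in the WT libraries. Myh4, the IIb form, had 4.60, 0.1999 and 0 TPM in the S156A libraries, against 0.169, 0.479 and 3.66 TPM in the WT libraries. These 3 genes together were 6.06% of heavy chain TPM in S156A 1 and 3.19% in WT 3. Myh7, the slow and cardiac beta heavy chain, had 39.5, 2.198 and 4.46 TPM in the S156A libraries, against 2.28, 3.10 and 15.9 TPM in the WT libraries. Myh7 was above 2 TPM in all 6 libraries, and it was 66.8% of the small heavy chain sum in WT 1, against 5.47% in S156A 1 and 3.10% in WT 3.

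Myh3, Myh2, Myh1, Myh4 and Myh8 lie in that order on the plus strand of chromosome 11, in a cluster from 66969126 (start of Myh3) to 67199460 (end of Myh8) in the coordinates of the files. These genes are similar in sequence, and no source used here says how the authors' counting divided reads that match several of them, so the split among them is less certain than their sum. Myh7 lies elsewhere, on chromosome 14.

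**Figure D2:**
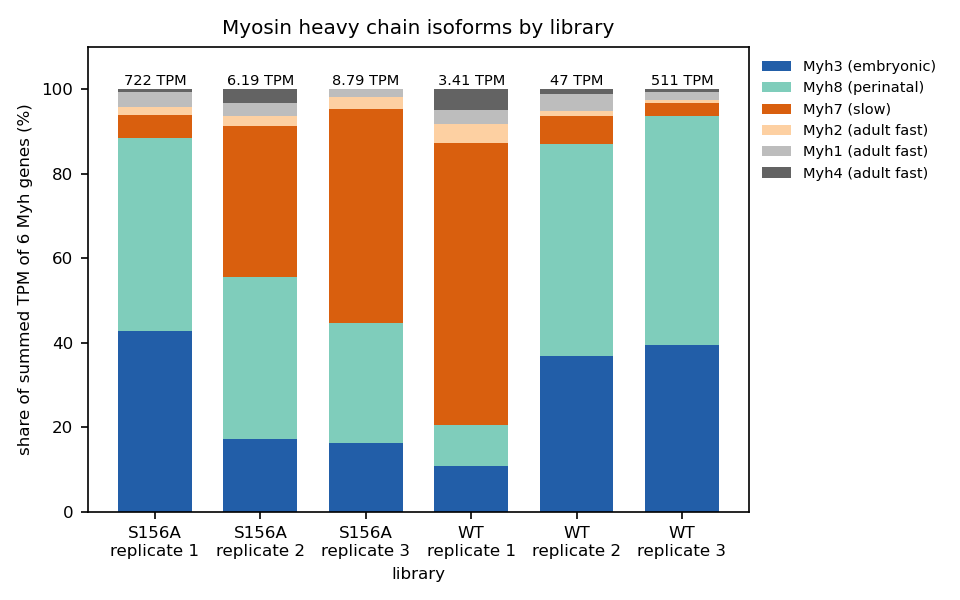
Share of each gene in the summed TPM of Myh1, Myh2, Myh3, Myh4, Myh7 and Myh8 (vertical axis, percent) in the 3 S156A and 3 WT libraries. Myh3 and Myh8 fill 88.5% of S156A 1, 87.0% of WT 2 and 93.7% of WT 3, while Myh7 is the largest part of WT 1 at 66.8%.

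The myosin light chains, small subunits that stiffen and regulate the neck of the heavy chain, held several of the highest levels. Mylpf, the fast regulatory light chain, had 1864, 17.4 and 12.9 TPM in the S156A libraries, against 2.17, 285 and 1915 TPM in the WT libraries. Myl1, the fast essential light chain, had 847, 7.48 and 6.43 TPM in the S156A libraries, against 0.332, 143 and 1127 TPM in the WT libraries. Myl4, the embryonic and atrial essential light chain, had 234, 0.502 and 1.13 TPM in the S156A libraries, against 0.803, 4.33 and 229 TPM in the WT libraries. Mylpf and Myl1 were among the 5 members whose profile over the 6 libraries lay farthest from the members' mean profile. They were highest in WT 3, then S156A 1 and WT 2, and lowest in WT 1. The members' mean profile was highest in S156A 1, then WT 3 and WT 2, and was also lowest in WT 1. Mylpf and Myl1 thus differed by wider swings and also by having WT 3 ahead of S156A 1. A pseudogene named after the Mylpf family, Mylf-ps, had 92.6, 3.31 and 2.23 TPM in the S156A libraries and 0.752, 15.6 and 97.1 TPM in the WT libraries, and reads may be shared between it and Mylpf.

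The slow and cardiac light chains were lower. Myl2, the slow and ventricular regulatory light chain, had 77.6, 0.169 and 0.0614 TPM in the S156A libraries, against 0.108, 18.0 and 34.9 TPM in the WT libraries. Myl3, the slow and ventricular essential light chain, had 35.9 TPM in S156A 1 and was listed at 0 in S156A 2 and S156A 3, against 0, 0.647 and 14.9 TPM in the WT libraries. S156A 1 exceeded WT 3 by 2.23-fold for Myl2 and 2.40-fold for Myl3, while Myl1 was at 0.75 of its WT 3 level there. On coverage, the mean read depth per base, which is not scaled for library depth, Myl1 had 626 in S156A 1 and 623 in WT 3. WT 2 held 51.6% of the WT 3 level of Myl2 but 4.33% of that of Myl3 and 1.89% of that of Myl4.

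Troponin genes, which encode the calcium switch of the thin filament, were mainly of the fast type. Tnnc2, fast troponin C, had 959, 12.3 and 5.21 TPM in the S156A libraries, against 0, 120 and 980 TPM in the WT libraries. Tnni2, fast troponin I, had 380, 8.71 and 3.70 TPM in the S156A libraries, against 0.533, 63.8 and 646 TPM in the WT libraries. Tnnt3, fast troponin T, had 709, 3.06 and 1.54 TPM in the S156A libraries, against 0.572, 21.7 and 256 TPM in the WT libraries. By TPM, fast troponin C was equal between S156A 1 and WT 3 to within 1.25-fold, whereas troponin I was lower in S156A 1 (0.59 of WT 3) and troponin T higher (2.77-fold). These differences depended on the measure. On coverage Tnni2 had 459 in S156A 1 and 495 in WT 3, and Tnnt3 had 265 and 252.

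The slow and cardiac troponins were higher in S156A 1 than in WT 3. Tnnc1, the slow and cardiac troponin C, had 143, 2.13 and 2.00 TPM in the S156A libraries, against 2.36, 9.67 and 70.9 TPM in the WT libraries. Tnni1, slow troponin I, had 57.1, 0.682 and 0.245 TPM in the S156A libraries, against 0, 3.57 and 32.5 TPM in the WT libraries. Tnnt1, slow troponin T, had 64.7, 0.272 and 1.83 TPM in the S156A libraries, against 0.730, 4.38 and 38.8 TPM in the WT libraries. The slow form was 13.0% of troponin C in S156A 1 and 6.75% in WT 3, and 13.1% of troponin I in S156A 1 and 4.78% in WT 3. For troponin T the order by TPM was the other way, with Tnnt1 at 8.12% in S156A 1 and 12.7% in WT 3. On coverage this order turned. Tnnt1, Tnnt2 and Tnnt3 had 80.9, 21.1 and 265 in S156A 1, against 44.6, 10.7 and 252 in WT 3. Tnnt2, the cardiac troponin T that fetal skeletal muscle also makes, had 22.9, 0.161 and 0.168 TPM in the S156A libraries, against 0.0723, 0.436 and 9.43 TPM in the WT libraries, and was 2.88% of troponin T in S156A 1 and 3.10% in WT 3. Tnnc1 overlaps Nisch on the opposite strand, and Nisch had between 322 and 380 TPM in the S156A libraries and between 318 and 398 TPM in the WT libraries.

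**Figure D3:**
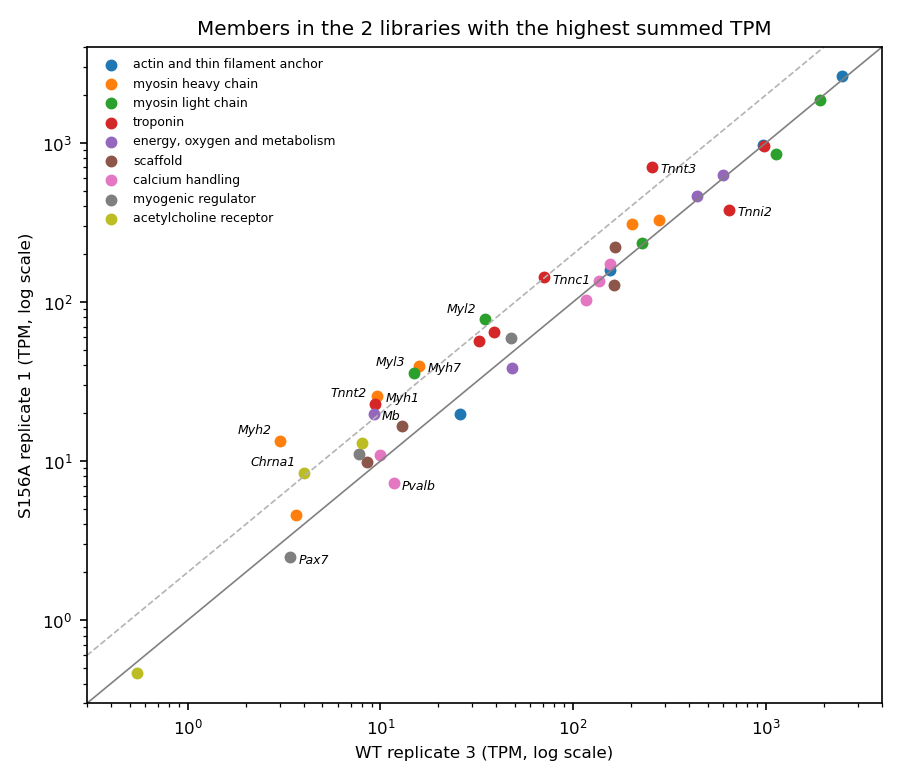
Level of each member in S156A 1 (vertical axis, TPM, log scale) against WT 3 (horizontal axis, TPM, log scale), coloured by role. The solid line marks equal levels and the dashed line a ratio of 2, and 10 members lie on or above the dashed line.

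Gene by gene, S156A 1 and WT 3 were close for some members and apart for others. The summed TPM of S156A 1 was 1.04 times that of WT 3, the median member ratio was 1.15, and 17 members were within 1.25-fold either way. The 10 members with a ratio of at least 2 were Myh2 (4.48), Tnnt3 (2.77), Myh1 (2.67), Myh7 (2.49), Tnnt2 (2.43), Myl3 (2.40), Myl2 (2.23), Mb (2.14), Chrna1 (2.102) and Tnnc1 (2.01). No member had a ratio of 0.5 or less, and the lowest were Tnni2 (0.59), Pvalb (0.62), Pax7 (0.73) and Myl1 (0.75). The 10 hold fast genes (Myh1, Myh2, Tnnt3) as well as slow or cardiac ones (Myh7, Myl2, Myl3, Tnnc1). Other slow or cardiac members had ratios of 1.76 (Tnni1), 1.67 (Tnnt1), 1.02 (Myl4), 1.01 (Actc1), 1.00 (Casq2) and 0.79 (Csrp3). All these ratios are of TPM, and those of Tnnt3, Tnni2 and Myl1 were not of this size on coverage. There Tnnt3 had 265 in S156A 1 and 252 in WT 3, Tnni2 459 and 495, and Myl1 626 and 623. Coverage is not scaled for depth, which was estimated at 3.87 aligned gigabases in S156A 1 and 3.37 in WT 3. Similar coverage in these libraries is therefore not the same as similar level. With 1 library of each genotype in this comparison there is no replicate check, and the ratios describe these libraries and not the genotypes. Over the 41 members, Pearson's r of log2(TPM + 1) was 0.976 between S156A 1 and WT 3, 0.926 between WT 2 and WT 3, 0.661 between S156A 2 and S156A 1, 0.623 between S156A 3 and S156A 1, and 0.223 between WT 1 and WT 3. The genes are not independent, so these values are a description only.

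Energy and oxygen genes followed the sarcomere. Ckm, the cytosolic muscle creatine kinase that regenerates ATP, had 631, 1.86 and 4.10 TPM in the S156A libraries, against 0.320, 67.1 and 599 TPM in the WT libraries. Ckmt2, the mitochondrial creatine kinase of sarcomeric muscle, had 38.5, 0.347 and 0 TPM in the S156A libraries, against 0.0965, 7.07 and 47.9 TPM in the WT libraries. Car3, the carbonic anhydrase of slow muscle that adipocytes also make, had 462, 6.51 and 8.45 TPM in the S156A libraries, against 1.81, 27.8 and 438 TPM in the WT libraries. All 3 were high in S156A 1 and WT 3, and none separated the genotypes. Mb, myoglobin, had 19.7, 0.0210 and 0.0496 TPM in the S156A libraries, against 0.0251, 3.18 and 9.22 TPM in the WT libraries.

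Scaffold genes showed the same 2 high libraries. Des, the intermediate filament desmin, had 222, 2.94 and 2.17 TPM in the S156A libraries, against 0.864, 21.3 and 165 TPM in the WT libraries. Csrp3, a LIM protein of the Z-disc, had 128, 0.277 and 0.701 TPM in the S156A libraries, against 0, 3.97 and 162 TPM in the WT libraries. Ttn, the titin spring that spans from Z-disc to M-band, had 9.84, 0.101 and 0.105 TPM in the S156A libraries, against 0.0742, 0.717 and 8.53 TPM in the WT libraries. On the per-length TPM scale the giant Ttn transcript was far below Des, although it is a core protein of every sarcomere. Neb, nebulin, the ruler of the thin filament, had 16.5, 1.73 and 0.830 TPM in the S156A libraries, against 0.970, 1.56 and 12.9 TPM in the WT libraries. Neb overlaps another gene on its own strand, which was listed at or next to 0 TPM in all 6 libraries.

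Calcium handling genes were high where the sarcomere genes were, with Ryr1 the exception in size. Atp2a1, the calcium pump SERCA1 that refills the sarcoplasmic reticulum, had 173, 1.43 and 3.54 TPM in the S156A libraries, against 0.4999, 15.5 and 154 TPM in the WT libraries. Casq1, the fast-muscle calsequestrin that stores calcium there, had 103, 4.77 and 4.39 TPM in the S156A libraries, against 3.51, 13.8 and 116 TPM in the WT libraries. Casq2, the cardiac and slow-muscle calsequestrin, had 136, 1.72 and 1.66 TPM in the S156A libraries, against 0.454, 20.2 and 136 TPM in the WT libraries. Casq2 was the larger part of the calsequestrin TPM in the libraries with muscle RNA, at 57.0% in S156A 1, 59.4% in WT 2 and 53.9% in WT 3. In WT 3 this depended on the measure, since coverage there was 118 for Casq2 and 126 for Casq1. Coverage was 134 and 127 in S156A 1, and 16.5 and 14.0 in WT 2. In the muscle-poor libraries Casq1 was the larger part by TPM, and Casq2 made up 26.5% in S156A 2, 27.4% in S156A 3 and 11.5% in WT 1. Ryr1, the calcium release channel, had 10.99, 4.16 and 4.47 TPM in the S156A libraries, against 6.28, 5.25 and 9.98 TPM in the WT libraries. Its whole range was under 3-fold, and WT 1, the library with the least muscle RNA, ranked next after these 2 for Ryr1. Pvalb, a calcium buffer of fast fibres that certain interneurons also make, had 7.25, 1.19 and 2.25 TPM in the S156A libraries, against 0.543, 4.14 and 11.7 TPM in the WT libraries.

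Myog and Myod1 followed the sarcomere genes and Pax7 did not. Myog, which drives the differentiation of myoblasts, had 59.6, 0.157 and 0.369 TPM in the S156A libraries, against 1.10, 3.31 and 47.7 TPM in the WT libraries. Myod1, which commits cells to the muscle lineage, had 11.1, 0 and 0.540 TPM in the S156A libraries, against 0.154, 0.876 and 7.76 TPM in the WT libraries. Pax7, a marker of muscle stem cells that is also active in the dorsal midbrain, had 2.48, 5.07 and 4.44 TPM in the S156A libraries, against 4.95, 4.38 and 3.41 TPM in the WT libraries. Pax7 ran opposite to the other members: its lowest values were in S156A 1 and WT 3, the muscle-rich libraries. Its profile was the farthest of all tested members from their mean profile, with a root-mean-square difference of 2.48 on the log2(TPM + 1) scale, followed by Ryr1 (1.82), Tnnc2 (1.69), Myl1 (1.61) and Mylpf (1.52). This measure also grows with the size of the swings. Tnnc2, Myl1 and Mylpf were highest in WT 3, then S156A 1 and WT 2, and lowest in WT 1. The members' mean profile had the same lowest library but had S156A 1 ahead of WT 3. These genes thus shared its high and low libraries with wider swings, but not the order of S156A 1 and WT 3.

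In the muscle-rich libraries the fetal receptor subunit was far above its adult counterpart. Chrna1, the ligand-binding alpha subunit, had 8.47, 0.0696 and 0.425 TPM in the S156A libraries, against 0.0358, 0.416 and 4.03 TPM in the WT libraries. Chrng, the gamma subunit of the fetal receptor, had 12.9, 0 and 0.146 TPM in the S156A libraries, against 0, 0.421 and 7.99 TPM in the WT libraries. Chrne, the epsilon subunit that replaces gamma in the adult receptor, had 0.467, 0.679 and 1.31 TPM in the S156A libraries, against 0.260, 0.163 and 0.543 TPM in the WT libraries. Chrng was 96.5% of the pair in S156A 1 and 93.6% in WT 3. Chrne was highest in S156A 3 and lowest in WT 2, and it was the 1 member that did not reach a mean of 1 TPM and was not tested.

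WT 2 carried a partial muscle signal. Its summed member TPM was 26.6 times that of WT 1 and 11.9% of that of WT 3, and the median member stood at 11.9% of its WT 3 level. Pax7 was higher in WT 2 than in WT 3, and among the others the share ran from 1.89% for Myl4 and 2.45% for Csrp3 to 51.6% for Myl2 and 52.6% for Ryr1. Of the members that reached 10 TPM there were 35, 3 and 2 in the S156A libraries and 0, 17 and 29 in the WT libraries. Even the muscle-poor libraries differed, since the sum in S156A 2 was 2.40 times that in WT 1. The members listed at 0 numbered 0, 3 and 3 in the S156A libraries and 5, 0 and 0 in the WT libraries.

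The comparison of S156A with WT embryos asks whether the substitution changed gene expression in the brain, and for the muscle genes no difference passed the test. By limma on log2(TPM + 1), with Benjamini-Hochberg adjustment over 18893 genes, 0.159% of all genes were called at an adjusted p under 0.05, and 0 of the 40 tested members were. An unadjusted p under 0.05 was found for 13.9% of all genes and for 0 of the 40 members, and the smallest adjusted p was 0.84. S156A and WT values did not overlap for 20.8% of all genes, and for 0 of the 40 members. The median log2 difference, S156A minus WT, was -0.32 over the members and 0.09 over all genes. In S156A 8 members were higher and 32 lower, against 11657 higher and 7236 lower of all genes. The members shared their high libraries, so these counts are not of independent genes. The median within-group SD on this scale was 2.79 for the members, against 0.25 for all genes, so a difference would have to be very large to be detected here. A p that misses the threshold does not show equal levels.

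Individual members were far within their spread. Acta1 averaged 882 ± 1497 TPM in S156A libraries and 938 ± 1338 TPM in WT libraries (SD, n = 3 each), a log2 difference of -0.99 with a standard error of 2.49 (limma adjusted p = 0.90). The other members named by their smallest unadjusted p were Ckmt2, Actn3, Myh7, Myl2, Actn2 and Myh2, with adjusted p between 0.84 and 0.87. Their log2 differences were -1.01 for Ckmt2, -0.60 for Actn3, 0.55 for Myh7, -0.98 for Myl2, -0.81 for Actn2 and 0.50 for Myh2. Each was smaller than its standard error, and each turned its sign when a single library was left out: without WT 3 the Acta1 difference was 0.83, and without S156A 1 that of Myh7 was -0.54 and that of Myh2 was -0.70. The median member difference was 1.02 without WT 3 and -2.06 without S156A 1. With both of these libraries left out, 0 members were called, and Myog alone had an unadjusted p under 0.05 (log2 difference -1.25, limma adjusted p = 0.25).

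**Figure D4:**
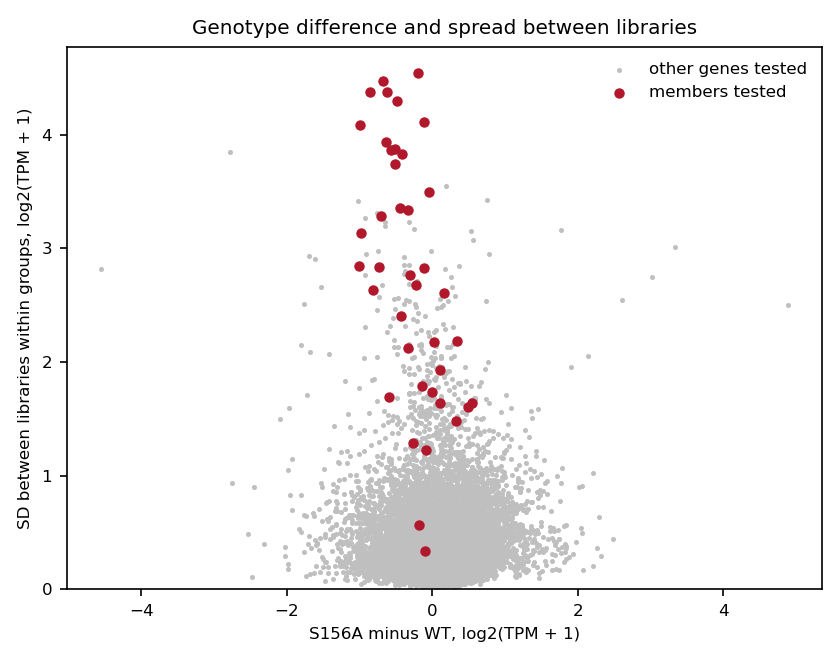
For each of the 18893 genes tested, the difference S156A minus WT (horizontal axis) and the SD between libraries within groups (vertical axis), both on the log2(TPM + 1) scale, with the 40 tested members in red. The members' differences run from -1.01 (Ckmt2) to 0.55 (Myh7), with a median spread of 2.79, against 0.25 for all genes.

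Other genes of striated muscle, taken from lists of excitation-contraction coupling, sarcomere, energy, myogenic and neuromuscular junction genes, mostly shared the members' high libraries. Of 72 listed genes, 62 had their 2 highest values in S156A 1 and WT 3. These were 11 of 12 coupling, 26 of 26 sarcomere, 10 of 13 energy, 10 of 12 myogenic and 5 of 9 junction genes. The junction list did not follow in its sum, which was 299, 263 and 240 TPM in the S156A libraries and 323, 339 and 313 TPM in the WT libraries. Of the 66 tested, 0 were called in either direction by limma, and their median log2 difference was -0.14. An unadjusted limma p under 0.05 was found for 3 (Ache, Cacnb1 and Fabp3), against 13.9% of all genes. S156A and WT values did not overlap for 5 of the 66, against 20.8% of all genes. By list, 0 of 12 coupling genes, 0 of 24 sarcomere genes, 0 of 12 energy genes, 0 of 11 myogenic genes and 0 of 7 junction genes were called.

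Among the coupling genes, Sln, the small inhibitor of the calcium pump, had 120, 1.41 and 0.886 TPM in the S156A libraries, against 0.405, 18.0 and 170 TPM in the WT libraries. Srl, a luminal calcium-binding protein of the reticulum, had 81.8, 15.1 and 14.5 TPM in the S156A libraries, against 12.5, 17.4 and 70.3 TPM in the WT libraries. Cacnb1, a calcium channel beta subunit that neurons also make, had 62.5, 65.3 and 60.6 TPM in the S156A libraries, against 81.3, 85.4 and 81.2 TPM in the WT libraries. Sln followed the members closely, whereas Cacnb1 did not follow muscle content at all. The groups did not overlap for Cacnb1, a property shared by 20.8% of all genes, and its limma adjusted p was 0.17. Asph, which holds the junctin isoform, had 44.3, 27.0 and 33.4 TPM in the S156A libraries, against 28.8, 30.4 and 53.4 TPM in the WT libraries.

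Among the sarcomere genes, Tpm1, a tropomyosin also made outside muscle, had 880, 143 and 125 TPM in the S156A libraries, against 113, 218 and 881 TPM in the WT libraries. Tpm2, the beta tropomyosin, had 415, 14.5 and 10.6 TPM in the S156A libraries, against 4.24, 38.5 and 371 TPM in the WT libraries. Mybpc1, the slow myosin-binding protein C, had 150, 2.22 and 6.85 TPM in the S156A libraries, against 1.72, 19.6 and 131 TPM in the WT libraries. These 3 repeated the pattern of the members, Tpm1 above a baseline of over 100 TPM in every library. Myoz1, a Z-disc protein of fast fibres, had 102, 1.67 and 2.97 TPM in the S156A libraries, against 0, 15.0 and 113 TPM in the WT libraries.

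Among the energy genes, Eno3, the muscle enolase, had 373, 21.98 and 14.9 TPM in the S156A libraries, against 15.3, 52.0 and 454 TPM in the WT libraries. Pgam2, the muscle phosphoglycerate mutase, had 158, 7.37 and 5.42 TPM in the S156A libraries, against 6.47, 28.7 and 188 TPM in the WT libraries. Fabp3 and Pfkm, which are also active in brain, did not have S156A 1 and WT 3 as their 2 highest libraries. Fabp3 had 132, 106 and 122 TPM in the S156A libraries, against 173, 141 and 153 TPM in the WT libraries. Pfkm had 117, 97.6 and 104 TPM in the S156A libraries, against 118, 125 and 142 TPM in the WT libraries. Within each genotype Pfkm was highest in the muscle-rich library, by a small margin. Neither Fabp3 nor Pfkm overlapped between the groups, a property shared by 20.8% of all genes, and neither was called.

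The fusion genes stood out among the myogenic list. Mymk, the membrane activator of myoblast fusion, had 36.3, 0.344 and 0.131 TPM in the S156A libraries, against 0, 1.41 and 16.3 TPM in the WT libraries. Mymx, its small partner, had 19.6, 0.263 and 0 TPM in the S156A libraries, against 0, 0.527 and 9.11 TPM in the WT libraries. Myf6, a late myogenic factor, had 12.9, 0.342 and 0.295 TPM in the S156A libraries, against 0, 1.51 and 16.3 TPM in the WT libraries. Both fusion genes were higher in S156A 1 than in WT 3, and Myf6 was lower. Itga7, a laminin receptor of muscle, had 18.1, 8.92 and 3.94 TPM in the S156A libraries, against 3.57, 5.57 and 18.1 TPM in the WT libraries.

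Of the neuromuscular junction genes, Chrnb1, the beta subunit of the muscle receptor, had 19.9, 3.07 and 2.30 TPM in the S156A libraries, against 1.12, 2.57 and 12.2 TPM in the WT libraries. Ache, acetylcholinesterase, which neurons also make, had 41.7, 30.2 and 39.3 TPM in the S156A libraries, against 69.4, 72.4 and 65.6 TPM in the WT libraries. Ache did not follow the muscle libraries, and its groups did not overlap, a property shared by 20.8% of all genes. Its log2 difference was -0.89 with a standard error of 0.14, and its limma adjusted p of 0.0738 missed the threshold. Agrn, agrin, had 191, 207 and 175 TPM in the S156A libraries, against 231, 241 and 202 TPM in the WT libraries. Dok7, an activator of the kinase MuSK, ranged from 10.1 to 14.8 TPM in the S156A libraries and from 11.1 to 12.2 TPM in the WT libraries.

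The genes most like the members, by the root-mean-square difference of the library-centred log2(TPM + 1) profile over the 6 libraries, were Myot (0.27), Mylf-ps (0.29), Trim72 (0.30), Atp1b4 (0.32), Itgb1bp2 (0.32), Dhrs7c (0.33), Pgam2 (0.34), Tpm2 (0.35), Eno3 (0.36) and Krt5 (0.36). The members' mean centred profile was 3.13, -1.81 and -1.78 in the S156A libraries and -2.38, 0.08 and 2.76 in the WT libraries. Krt5 is a keratin of basal skin cells and not a muscle gene, so the likeness did not separate muscle from other tissues that moved with it.

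Markers of other tissues outside the brain were also high in S156A 1 and WT 3, and their part in the muscle result was not tested. Connective tissue markers (fibroblasts and meninges) summed to 2907, 426 and 426 TPM in the S156A libraries and 185, 553 and 2405 TPM in the WT libraries, with these top 2 libraries in 10 of 10 genes. Bone and cartilage markers summed to 476, 35.7 and 49.0 TPM in the S156A libraries and 20.1, 44.3 and 301 TPM in the WT libraries (12 of 12 genes). Skin markers summed to 333, 29.9 and 44.2 TPM in the S156A libraries and 33.6, 42.6 and 209 TPM in the WT libraries (10 of 10 genes). Adipocyte markers summed to 350, 6.63 and 10.999 TPM in the S156A libraries and 0.672, 45.8 and 423 TPM in the WT libraries (5 of 6 genes). Those 5 count Lep only through a tie, since it was at 0 TPM in S156A 1 and in every other library except WT 3 (0.0301 TPM). All 4 lists had their 2 highest sums in the libraries where the members were highest. WT 2 was high relative to WT 1 for adipocyte markers (68.1-fold) and members (26.6-fold), and less so for connective tissue (2.99-fold), bone and cartilage (2.196-fold) and skin (1.27-fold).

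Heart muscle was measured separately because Actc1, Myh7, Myl2, Myl3, Myl4, Tnnc1, Tnnt2 and Casq2 are shared with it. The cardiac markers summed to 22.5, 12.8 and 6.55 TPM in the S156A libraries and 6.81, 7.62 and 16.6 TPM in the WT libraries, with the muscle-rich libraries as top 2 in 4 of 10 genes. Myh6, the adult atrial heavy chain, had 3.20, 0.601 and 0.533 TPM in the S156A libraries, against 0.446, 0.855 and 0.905 TPM in the WT libraries. Ankrd1, a stress-induced gene that skeletal muscle also makes, had 10.7, 0 and 0 TPM in the S156A libraries, against 0, 0.708 and 2.86 TPM in the WT libraries. Tnni3, the cardiac troponin I, had 5.24, 9.16 and 3.20 TPM in the S156A libraries, against 3.77, 2.90 and 4.398 TPM in the WT libraries. Ankrd1 was highest in the muscle-rich libraries and Tnni3 was not. Nkx2-5 reached 4.57 TPM in WT 3 and was under 1 TPM elsewhere, and Nppa, the atrial hormone, was between 0.948 and 1.92 TPM in the S156A libraries and between 2.07 and 2.66 TPM in the WT libraries. Of the others, Myl7 reached at most 1.84 TPM, and Mybpc3, Tbx5, Tbx20 and Nppb at most 0.249 TPM. The part of heart RNA in the shared genes was not tested. Smooth muscle and mural cell markers summed to 299, 173 and 154 TPM in the S156A libraries and 133, 146 and 284 TPM in the WT libraries (9 of 12 genes), a narrower range than that of the members.

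**Figure D5:**
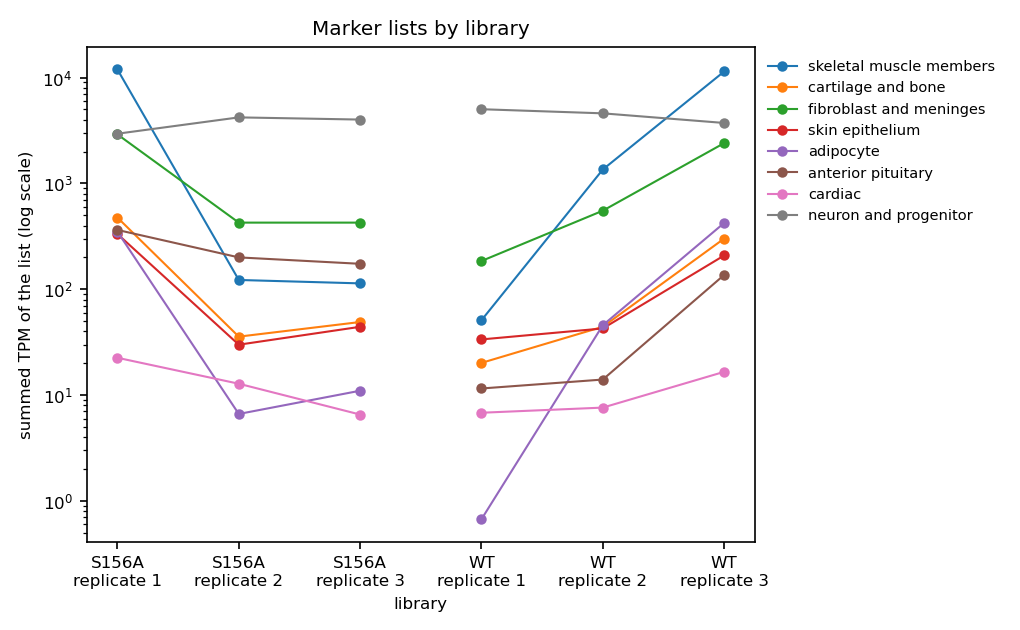
Summed TPM (log scale) of the members and of marker lists for other tissues in the 3 S156A and 3 WT libraries. The members span from 51.0 to 11933 TPM, the skin, bone, connective tissue and adipocyte lists are also highest in S156A 1 and WT 3, and the brain list is lowest there within each genotype.

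Further lists differed in part from this order. Schwann cell markers summed to 36.6, 43.3 and 27.1 TPM in the S156A libraries and 37.1, 33.9 and 45.7 TPM in the WT libraries, with S156A 1 and WT 3 as top 2 in 4 of 6 genes. Most of that sum was Drp2, at 22.4, 38.7 and 22.3 TPM in the S156A libraries and 30.9, 28.0 and 22.4 TPM in the WT libraries. Pituitary markers summed to 364, 200 and 174 TPM in the S156A libraries and 11.5, 14.0 and 137 TPM in the WT libraries, with the muscle-rich libraries as top 2 in 2 of 10 genes. All 3 S156A pituitary sums were above all 3 WT sums. Most of each S156A sum was Gh, at 310, 166 and 130 TPM, against 0, 1.69 and 97.1 TPM in the WT libraries. Of the 5 pituitary genes tested, 4 did not overlap between the groups, against 20.8% of all genes. By limma 0 of the 5 were called, against 0.159% of all genes. The cause of this difference was not tested. The red blood cell list had these top 2 libraries in 0 of 7 genes.

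Some member levels rest on counting that cannot be settled from the tables. Of the members, 21 overlap an annotated gene on the opposite strand and 5 overlap one on the same strand. No source used here gives the strand setting of the authors' counting, so low values of those genes may hold reads of their neighbours.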

How the data were processed

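Total RNA of whole E18.5 brain, 3 brains per tube, was read with a directional kit, per the labels' protocols. The deposited tables, 1 per library, hold StringTie gene abundances. The deposited coverage signal is mean read depth per base, per the file headers. The deposited FPKM values are scaled by the authors to length and mapped fragments, per the file headers. The deposited TPM values are library shares, but annotated and assembled rows together exceed the usual total, so the deposited TPM was treated as a score with no fixed total. The submitters' processing notes list StringTie 2.1.5, HISAT2 2.2.1, Trim Galore 0.6.6 and the build hg38, although the rows are mouse genes. Of 52083 genes matched by identifier, 4.15% started within 1000 bases of their GRCm38 position, so GRCm39 was inferred for the files. No source used here gives the strand setting, filters or annotation release.

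Only annotated rows were used, rows sharing an identifier were summed, and these rows held 93.1% to 95.8% of the usual TPM total. Depth is known only as an estimate, since 12.8% to 13.9% of rows sat at the commonest coverage to FPKM ratio, so no counting interval is given. limma 3.58.1 in R 4.3.3 was fitted to log2(TPM + 1) of the 18893 genes averaging 1 TPM or more, with a mean-variance trend and no covariate, two-sided. On simulated data of the 18893 genes, with noise at the median within-group SD of 0.25, the fit called 96 of 100 genes changed by 1 and 100 of 100 changed by 3 on the log2 scale, and 10 of 18693 unchanged genes. The members' spread was far larger, so this says nothing of the power for them. A fold on this scale understates changes of low genes. P-values measure the spread between pools of brains.

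The members and all gene lists were chosen with earlier results of these data known. Statistics were printed for Acta1 and the 6 members with the smallest unadjusted p, and, of each other muscle list, for the 4 genes with the highest TPM in any library. Alternatives were FPKM, pseudocounts of 0.1 and 5, no filter, a minimum mean of 5 TPM, trimmed mean scaling, rescaling without muscle genes, no trend, a replicate block and leaving out libraries. Promoters are RefSeq sequences in GRCm38.p6 and were not joined to coordinates of the files.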

Additional observations from a re-analysis of the deposited data

How the results depend on the processing

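No member and no other listed muscle gene was called under any of the 16 alternatives, and the smallest adjusted p among the named members was 0.316. The number of all genes called was 30, and it was 0 with no filter on low values (3364 genes at an unadjusted p under 0.05), 47 with trimmed mean scaling, 16 without a trend and 0 without WT 3 and S156A 1 together (3141 at an unadjusted p under 0.05). Leaving out 1 library gave between 0 and 70 calls, with 0 by limma without WT 2, S156A 2 or S156A 3 (1542, 2275 and 2041 at an unadjusted p under 0.05), 1 without S156A 1, 2 without WT 1 and 70 without WT 3. Replicate numbers were not treated as pairs in the main fit, and deviations of same-numbered libraries from their group means had correlations of -0.548, 0.195 and -0.412. The muscle-rich libraries carry different numbers and enter these deviations. The correlations therefore cannot show whether same-numbered libraries were paired. With the replicate block 0 genes were called (1880 at an unadjusted p under 0.05).

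The signs of the named members rested on single libraries. Over the fits that left out 1 library, the log2 difference ran from -3.36 to 0.83 for Acta1, from -2.70 to 0.34 for Ckmt2, from -1.62 to 0.32 for Actn3, from -3.03 to 0.07 for Myl2, from -2.48 to 0.44 for Actn2, from -0.54 to 1.29 for Myh7 and from -0.70 to 1.13 for Myh2. Without WT 3 it was 0.0044 for Myl2, and without S156A 2 it was 0.21 for Acta1 and 0.0044 for Myl2. Without S156A 3 it was 0.17 for Acta1 and 0.08 for Actn2 and 0.074 for Myl2. Without both muscle-rich libraries it was -0.18 for Myh2. The median member difference ran from -2.06 to 1.02 and the difference of log2 summed TPM, -0.75 with all libraries, from -2.97 to 1.06. The mean share of Myh3 and Myh8 was 62.9% in S156A and 67.1% in WT, and on coverage it was 70.3% and 67.9%, a turn of sign within the spread between libraries. The cause of these changes was not tested.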

Other observations

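Adipocyte markers went different ways in WT 2. Ucp1, the uncoupling protein of brown adipocytes, was chosen after its values were seen. It had 7.31, 0.130 and 1.01 TPM in the S156A libraries, against 0.348, 9.07 and 7.49 TPM in the WT libraries, so WT 2 was the highest library. Fabp4, a fatty acid carrier, had 287, 6.36 and 9.56 TPM in the S156A libraries, against 0.267, 32.3 and 352 TPM in the WT libraries, and made up most of the adipocyte sum in WT 2. Adipoq, adiponectin, had 22.3, 0.0253 and 0.0485 TPM in the S156A libraries, against 0, 0.193 and 31.4 TPM in the WT libraries, and Lep was at 0 in WT 2. As a percentage of the WT 3 sum, WT 2 held 11.9% for the members, 10.8% for adipocyte, 10.3% for pituitary, 14.7% for bone and cartilage, 20.4% for skin and 23.0% for connective tissue markers.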
